A study of Mus musculus with 12 samples.

Results

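Hearts of mice carrying the R211A mutant of integrin-linked kinase (ILK) under cardiac-specific over-expression (Tg R211A) were compared with hearts of wild type littermate controls with Affymetrix Mouse MOE 430 2.0 arrays, each mouse giving 1 array. The series holds 12 hearts, of which 3 came from Tg R211A mice and 6 from controls; these 9 were set against each other, and 3 hearts of mice with the S343D mutant (Tg S343D) entered the estimate of the spread. The mice were chosen by the genotype on their labels. Of 45037 probe sets other than array controls, 22519 were tested, those whose log2 signal, averaged over all 12 arrays, reached the median of such averages.

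By their labels the mice of all groups were C57BL/6 animals aged 8 to 9 weeks. The Tg R211A mice carried a human ILK transgene with the R211A mutation, the Tg S343D mice one with the S343D mutation, and the controls no transgene. The sources used here do not give the promoter of the transgenes or the number of founder lines. The controls came in 2 series of replicate numbers, called the first and the second set, with 3 mice in each. Tg R211A hearts and the second set hold the heart numbers 7 to 12, and Tg S343D hearts and the first set hold 1 to 6, but no label ties a set to a line, so all 6 controls were used. A difference between the transgenic lines cannot be told apart from one between these ranges of heart numbers. Below, hearts 1, 2 and 3 of the Tg R211A group are named by replicate number, not by these heart numbers. By its label 1 mouse, replicate 1 of the first set, was male, and the others were female. Xist, the RNA that coats the inactive X chromosome of females, had signals from 703 to 864 in the 6 controls and of 733, 727 and 752 in Tg R211A hearts, with no control standing apart at the low end. The methods of the study describe hearts with and without myocardial infarction, whereas the labels name no surgery. The 12 cardiomyocyte markers had summed signals from 112007 to 125623 in Tg R211A hearts and from 108007 to 128708 in controls, with a median log2 fold change of -0.01. Precision is limited by the few arrays in each group.

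ILK sits at integrin adhesion sites, where with PINCH and parvin it couples the extracellular matrix to actin, and in cardiomyocytes it lies at costameres and Z-discs. Heat shock proteins hold unfolded clients and fold them with ATP, Hsp70 and Hsp90 working with cochaperones that set their cycle. Their inducible genes are switched on by heat shock factor 1 (HSF1), which binds inverted repeats of a short unit in their promoters.

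In Tg R211A hearts, Ilk and chaperones of the Hsp70 and Hsp90 machines were higher than in controls, as were Ggt5, Uap1, Akt1s1 and a few other genes, while Myot, Mndal, Angpt1, Agtpbp1 and a group of genes of chromosome 1 were lower. A probe set was called when limma's moderated test gave an adjusted p under 0.05 over all tested probe sets. The calls were 28 probe sets higher and 18 lower, 0.124% and 0.0799% of those tested. On values centred on the array median the split was 25 higher and 9 lower. They name 18 genes that rose and 11 that fell, and 9 called probe sets name no single gene. Reading each gene from its brightest probe set, 14 genes rose and 9 fell, 0.125% and 0.0804% of 11189 genes. Against the second control set alone, 14 probe sets were higher and 6 lower with the replicate number as a block (the paired fit, 6 arrays), and 9 and 4 without it. Of the 46 called probe sets 14 were also called in the paired fit, all 46 kept their direction against that set, and where the call of a gene ended there its adjusted p is given beside it. At an unadjusted p under 0.05 stood 791 probe sets higher and 900 lower. Tg R211A and control hearts did not overlap in any of the 46 called probe sets, whereas 4.07% of all those tested had no overlap. Each of the 46 had an exact permutation p of 0.0119, the smallest that 3 mice against 6 allow. The calls were made on the same arrays, so neither value is a separate check of them.

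Ilk had signals of 8223, 9553 and 8622 in the 3 Tg R211A hearts, and 551, 598 and 657 as lowest, median and highest control. The groups were far apart, and Tg S343D hearts lay between them at 3258 to 4016. Over the controls Ilk rose 14.6-fold (3.87 on the log2 scale, SE 0.0794, adjusted p = 3.8e-13, limma), and it also exceeded Tg S343D hearts (log2 difference 1.33, adjusted p = 1.12e-05, limma). How far the mouse probes read the human transcript was not tested. Of the other members of the complex of ILK, PINCH, parvin and kindlin, the actin-binding parvins had log2 fold changes of 0.28 for Parva and 0.17 for Parvb (adjusted p = 0.42 and 0.634, limma). In this list of 12 measured genes, 11 lay above 0 and 1, Ilk itself, was called, beside 49.5% of all genes above 0. Integrins, talins and vinculin had no member of 24 called by limma or below an unadjusted p of 0.05 (0 and 0), and their median was 0.03.

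**Figure D1:**
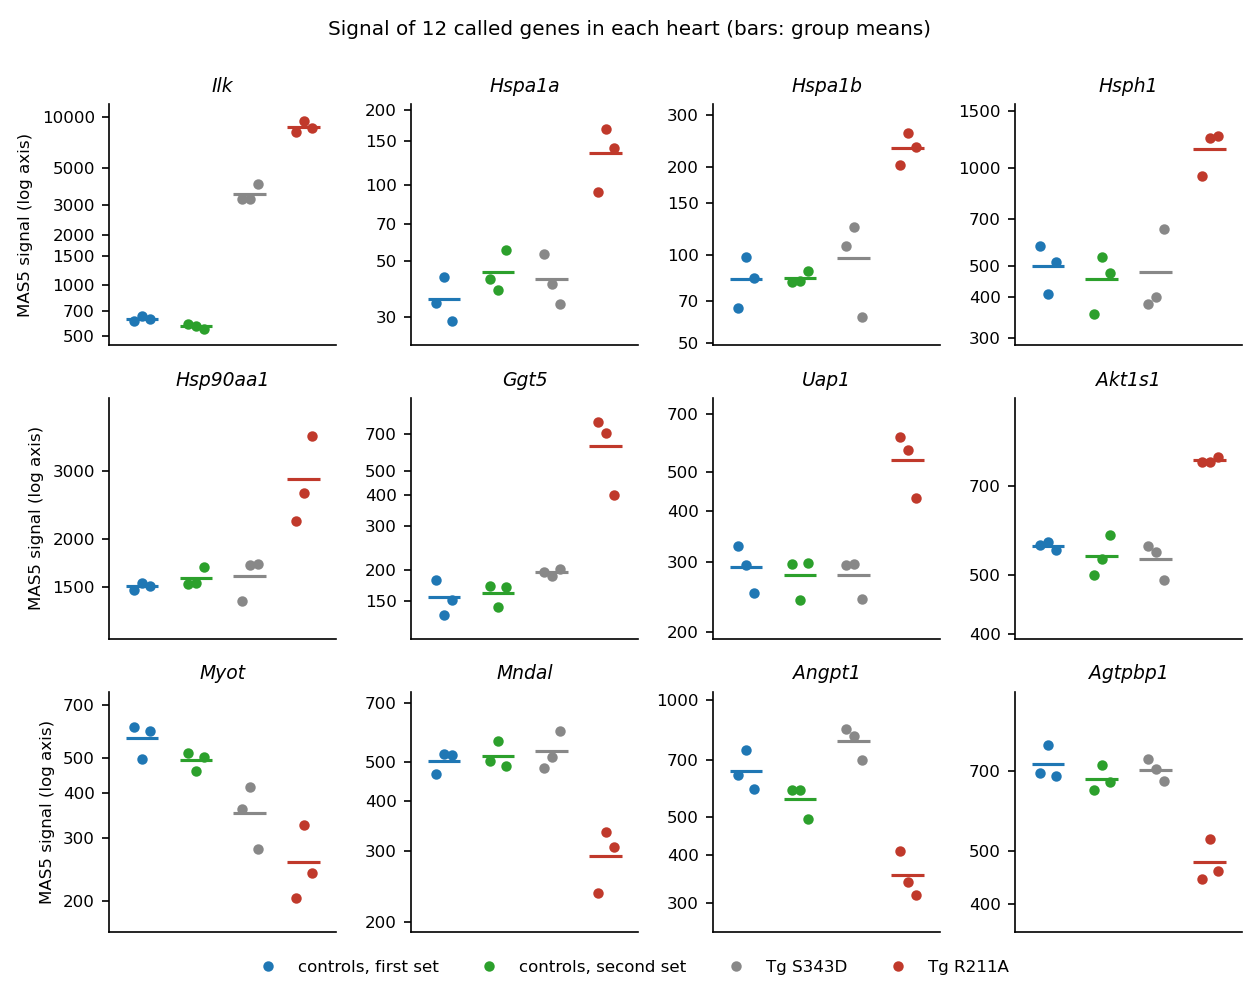
MAS5 signal (log axis) of 12 called genes in each heart, by group, with bars at group means and 1 probe set per gene. The 3 Tg R211A hearts fall outside the range of the 6 controls for each of the 12 genes.

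Chaperones made up 10 of the 18 genes that rose. The promoter windows of 4 of them are shown for the heat shock elements they hold. The window runs from 250 bases before to 50 after the start in RefSeq for GRCm38.p6, and capitals mark each match to GAANNTTC or TTCNNGAA, the inverted repeats of the heat shock unit, each its own reverse complement, so both strands are searched. The windows are chr17:34972107-34972406 (minus strand) for Hspa1a, chr17:34959189-34959488 (minus strand) for Hspa1b, chr5:149636287-149636586 (minus strand) for Hsph1 and chr5:135887669-135887968 (plus strand) for Hspb1.
Hspa1a: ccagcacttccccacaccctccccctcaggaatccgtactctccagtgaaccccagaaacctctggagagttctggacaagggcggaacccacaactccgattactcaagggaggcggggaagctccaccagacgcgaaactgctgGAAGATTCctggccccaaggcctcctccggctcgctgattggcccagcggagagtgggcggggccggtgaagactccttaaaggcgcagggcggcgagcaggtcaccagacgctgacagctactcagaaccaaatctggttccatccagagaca
Hspa1b: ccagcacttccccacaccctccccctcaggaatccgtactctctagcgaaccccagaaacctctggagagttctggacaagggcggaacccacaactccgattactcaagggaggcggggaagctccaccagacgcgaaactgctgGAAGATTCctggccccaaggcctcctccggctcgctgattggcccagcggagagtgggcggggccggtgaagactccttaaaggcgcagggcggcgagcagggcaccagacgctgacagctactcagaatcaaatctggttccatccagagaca
Hsph1: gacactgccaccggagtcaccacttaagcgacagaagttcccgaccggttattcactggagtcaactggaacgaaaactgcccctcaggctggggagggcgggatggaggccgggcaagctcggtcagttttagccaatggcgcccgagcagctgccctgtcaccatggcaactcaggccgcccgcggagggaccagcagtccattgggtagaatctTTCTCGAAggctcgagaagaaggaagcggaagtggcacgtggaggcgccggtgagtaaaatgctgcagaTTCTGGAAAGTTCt
Hspb1: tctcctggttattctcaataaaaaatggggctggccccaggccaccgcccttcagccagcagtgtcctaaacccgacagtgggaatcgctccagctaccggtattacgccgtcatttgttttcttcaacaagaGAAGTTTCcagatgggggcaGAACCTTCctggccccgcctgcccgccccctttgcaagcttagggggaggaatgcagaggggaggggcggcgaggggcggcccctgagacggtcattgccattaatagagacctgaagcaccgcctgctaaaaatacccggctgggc
The windows of Hspa1a and Hspa1b share 296 of 300 bases and hold the same single match, whereas Hsph1 holds 3 matches, of which 2 overlap by 3 letters into a longer element after the start. A match to either repeat occurred in 4 of the 7 risen chaperone genes with a window in the table, in 2 of the 7 other risen genes, in 2 of 8 fallen genes and in 14% of 9053 tested genes with a window. Overlapping repeats occurred in 1 of those 7 chaperone genes and in 0.596% of tested genes. Across the HSF1 target core, a list of 24 measured genes described next to the signals, 12 of 20 genes with a window held a repeat and 5 held overlapping ones. No window was given for Hsp90aa1, Hspa8 and St13.

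Hspa1a and Hspa1b encode the inducible Hsp70 and have nearly identical transcripts, so their probe sets may read both. Signals of Hspa1a were 93.9, 168 and 142 in Tg R211A hearts and 28.9, 40.3 and 55.1 as lowest, median and highest control. Signals of Hspa1b were 202, 261 and 233 against 65.8, 82.4 and 98.7 on its brightest probe set. Both genes were lowest in heart 1 and highest in heart 2 within the transgenic group. Hspa1a rose 3.31-fold (log2 fold change 1.73, SE 0.231, adjusted p = 0.00316, limma) and Hspa1b 2.8-fold, with log2 fold changes from 1.48 to 1.66 over its 3 probe sets, all called. Tg S343D hearts stayed within 33.8 to 53.4 for Hspa1a. Hspa1a passed the filter on mean signal only through the Tg R211A hearts, since the control and Tg S343D means lay below it, so its place among the tested probe sets already required a high transgenic value. With no filter its adjusted p was 0.00726 (limma), and in the paired fit it was 0.0721. Hspa1b was called there on its brightest set and not on the others (adjusted p = 0.0539 and 0.0781, limma). Hspa8, the constitutive Hsc70 and the brightest member of the family, had signals of 6246, 7361 and 8087 against 4767, 5159 and 5496. It rose 1.4-fold on this probe set (SE 0.0848 on the log2 scale, adjusted p = 0.0251, limma) and 1.46-fold on a second called set, and its 4 tested sets ranged from 0.49 to 0.97. The call on the first of these sets ended without replicate 1 or 3 of the first set, replicate 3 of the second set, or Tg R211A heart 2 or 3 (adjusted p up to 0.21, limma), while that of the second set held without any 1 mouse. In the paired fit neither was called (adjusted p = 0.16 and 0.0655, limma).

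The HSP110 proteins act as nucleotide exchange factors of Hsp70. Hsph1, one of them, had signals of 948, 1246 and 1263 in Tg R211A hearts and 356, 495 and 576 as lowest, median and highest control. It rose 2.43-fold (log2 fold change 1.28, SE 0.175, adjusted p = 0.00329, limma), with 1.38 on its other probe set. Hspa4l, another member, gave log2 fold changes from 0.43 to 0.61 over 5 probe sets, of which 1 was called (signals of 262, 249 and 285 against 139, 176 and 197; adjusted p = 0.0271, limma). That call ended without replicate 1 or 3 of the first set, replicate 2 of the second set or any 1 of the 3 Tg R211A hearts (adjusted p up to 0.213). It was also lost in the paired fit (adjusted p = 0.15, limma), where both sets of Hsph1 were called. In the HSP70 and HSP110 list, with 14 genes measured, 4 rose on their brightest sets and 0 fell, and the median log2 fold change was 0.10 (3 and 0.07 without Hspa1a).

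Among Hsp90 and its cochaperones, 3 of 22 measured genes rose on their brightest probe set and 0 fell (limma). Hsp90aa1, the inducible cytosolic Hsp90, had signals of 2217, 2628 and 3698 against 1471, 1531 and 1695 and rose 1.8-fold, with log2 fold changes of 0.85, 0.91 and 1.05 over 3 called probe sets. Stip1 (Hop), which bridges Hsp70 and Hsp90, had signals of 610.2, 624 and 712 against 412, 439 and 478 and rose 1.47-fold (SE 0.0732 on the log2 scale, adjusted p = 0.00316, limma). Unc45b, the muscle chaperone that folds myosin with Hsp90, had signals of 2414, 2380.0 and 2729.9 against 1472, 1749 and 1885 and rose 1.46-fold (adjusted p = 0.00329, limma). No transgenic heart overlapped the controls for these 3 genes, and their calls held without any 1 mouse, but the paired fit ended those of Stip1 and Unc45b (adjusted p = 0.0721 and 0.0604, limma) and those of Hsp90aa1 on its brightest set (0.0555) and on a second (0.052), while its dimmest tested set was called. St13 (Hip), which stabilizes ADP-bound Hsp70, was called on 1 of 3 probe sets, at 549.8, 584 and 655 against 324, 408 and 443, with a log2 fold change of 0.59 there and of 0.34 and 0.08 on the others. Without Tg R211A heart 2 or 3 that call was lost (adjusted p up to 0.175, limma). The paired fit gave St13 an adjusted p of 0.052 (limma).

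Small heat shock proteins bind unfolding proteins without ATP. Hspb1 (Hsp25) was called on 1 of 2 probe sets, with signals of 4092, 4931 and 4591 against 2642, 2923 and 3396, and the log2 fold changes were 0.60 and 0.44. The call was lost without Tg R211A heart 2 or 3 (adjusted p up to 0.137, limma), and on values centred on the array median. Cryab, the lens and muscle crystallin, differed by 0.16 on the log2 scale (adjusted p = 0.612, limma). In the J-domain list 0 of 25 genes were called by limma, 15 lay below 0 and the median was -0.04. At an unadjusted p under 0.05 stood 4 genes above 0 and 2 below, Dnajb9 (-0.16) and Dnajb11 (-0.34) of the endoplasmic reticulum. The 2 with the smallest p were Dnajb1 and Dnaja1, which feed clients to Hsp70. Dnajb1 had signals of 357, 601 and 515 against 228, 316 and 382 (log2 fold change 0.70, SE 0.171, adjusted p = 0.194, limma), and heart 1 overlapped the controls. Dnaja1 had 705, 967 and 1144 against 517, 634 and 691 (0.59, adjusted p = 0.179, limma).

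Over the HSF1 target core, 23 of 24 measured genes lay above 0 and 6 were called higher, with a median log2 fold change of 0.43 beside -0.0014 over all genes. The list was chosen with earlier results of these data known. It holds genes that the study named on these samples, such as Hspa1b and Hsph1, so these values are not independent evidence. Without Hspa1a, which passed the filter only through Tg R211A hearts, 5 were called and the median was 0.43. Members with no call included Ahsa2, an activator of the Hsp90 ATPase (0.71, adjusted p = 0.0882, limma), the mitochondrial chaperonin Hspe1 (0.44, adjusted p = 0.268) and Serpinh1, the collagen chaperone (0.36, adjusted p = 0.219). The median was 0.44 against the second control set alone, 0.44 against the first, and between 0.36 and 0.53 with any 1 mouse left out. The list's mean log2 signal was 10.18, 10.44 and 10.45 in Tg R211A hearts and 9.77 to 9.92 in the 6 controls. Of the 16 called probe sets of chaperone genes, 14 were lowest in heart 1 among the transgenic hearts. Heart 1 also had the highest signal of the atrial light chain Myl7 among them, 4910.4 against 315 and 739, while controls ranged from 131 to 3707, and the part of atrial tissue in the chaperone values was not tested. The other lists of folding had no call on their brightest sets: chaperonin and prefoldin (0 of 14), mitochondrial chaperones and proteases (0 of 15), proteasome subunits (0 of 32) and ubiquitin ligases with autophagy genes (0 of 19), with unadjusted p under 0.05 for 1, 2, 2 and 2 genes (limma).

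**Figure D2:**
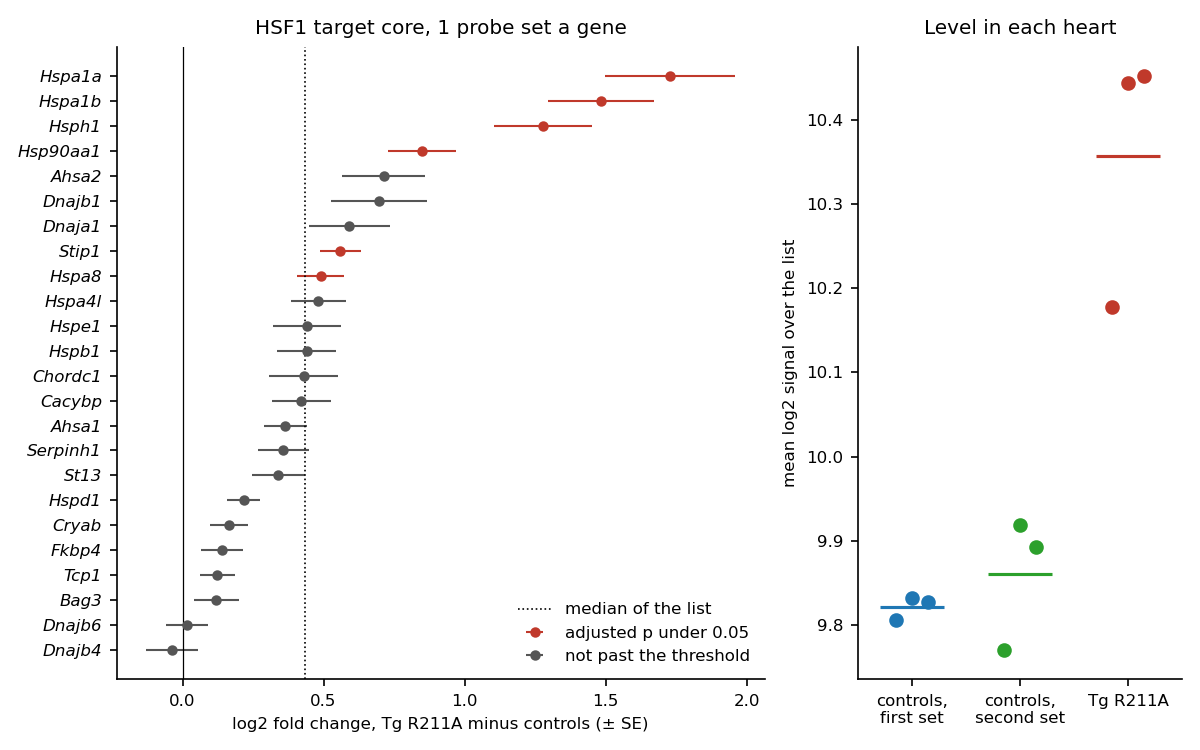
Left, log2 fold change (Tg R211A minus controls, ± SE, 1 probe set per gene) of the 24 measured genes of the HSF1 target core, with called genes in red and the list median dotted. Right, mean log2 signal over the list in each heart with bars at set means: the 3 Tg R211A hearts lie above all 6 controls, heart 1 the lowest of them.

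Endoplasmic reticulum stress genes did not share this rise. Of 31 measured, 1 was called, Atf6, the membrane-bound transcription factor of that response, and it fell, with signals of 517, 607 and 558 against 704, 751 and 855 (log2 fold change -0.45, SE 0.0728, adjusted p = 0.0148, limma). Its call ended without Tg R211A heart 1 or 3 (adjusted p up to 0.12), on centred values and in the paired fit (adjusted p = 0.143, limma), and its 2 dimmer probe sets gave -0.20 and -0.28. At an unadjusted p under 0.05 stood 2 genes above 0 and 7 below, and the list median was -0.07. Herpud1, which serves degradation at the reticulum, had 1063, 1470.4 and 1313 against 814, 862 and 1058 (0.49, adjusted p = 0.23, limma), and Manf, a secreted stress protein, differed by -0.45 on the log2 scale (adjusted p = 0.545, limma).

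Ggt5, an enzyme that cleaves glutathione conjugates such as leukotrienes, had the largest called rise after Ilk among the tested probe sets, which leave out those below the filter such as Ifi202b, described with chromosome 1. It had signals of 783, 709 and 399 in Tg R211A hearts, 132, 161 and 182 as lowest, median and highest control, and 189 to 201 in Tg S343D hearts. The rise of 3.85-fold (log2 fold change 1.94, SE 0.17, adjusted p = 0.000136, limma) was seen on 1 probe set only, and the 2 others of the gene gave 0.03 and -0.14. In the glutathione list 1 of 26 genes was called, and Gclm, a subunit of the enzyme that starts glutathione synthesis, differed by 0.68 on the log2 scale with overlapping groups (adjusted p = 0.439, limma).

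Uap1, which makes UDP-N-acetylglucosamine at the end of the hexosamine pathway, had signals of 612, 569.6 and 432 against 241, 295 and 327. It rose 1.88-fold (log2 fold change 0.91, SE 0.123, adjusted p = 0.00316, limma), and a second called set gave 1.04. The paired fit ended the call of the first set (adjusted p = 0.0721, limma) and not that of the second. Pgm3, the enzyme just before Uap1 in the pathway, had 46.3, 59.3 and 42.2 against 68.1, 73.6 and 86.8 (-0.63, adjusted p = 0.144, limma), the opposite sign without overlap or call. Of 13 genes of the pathway 1 was called. Pfkl, the liver-type phosphofructokinase of glycolysis, was called on 1 of 3 sets (983, 962 and 1062 against 800.0, 819 and 841; log2 fold change 0.29, adjusted p = 0.0421), and the call ended in each of the 9 fits without 1 mouse (adjusted p up to 0.291, limma) and in the paired fit (0.185). Slc2a1, the basal glucose transporter, differed by 0.46 on the log2 scale (adjusted p = 0.261, limma).

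Akt1s1 (PRAS40), the Akt substrate that restrains mTORC1, was the 1 called gene among 24 of ILK and Akt signalling. Its signals were 767, 769 and 783 against 501, 556 and 582, with no overlap. It rose 1.41-fold (log2 fold change 0.50, SE 0.0658, adjusted p = 0.00316, limma), while its other tested probe set gave 0.06. Its call held without any 1 mouse and ended in the paired fit (adjusted p = 0.0587, limma). The list median was -0.03 and 6 of 24 genes lay above 0. Cdca4, a nuclear cell cycle protein, rose 1.63-fold on 1 of 3 probe sets (147, 165 and 197 against 87.1, 109 and 110.5; adjusted p = 0.0262, limma), and the others gave -0.02 and 0.05. Its call ended without replicate 3 of the first set or Tg R211A heart 2 or 3 (adjusted p up to 0.221) and in the paired fit (adjusted p = 0.209, limma). Retreg3, an endoplasmic reticulum shaping protein, rose 1.35-fold (324, 330.0 and 319 against 227, 234 and 278; adjusted p = 0.0423, limma), and the call held in 1 of 9 fits without 1 mouse, the one without replicate 3 of the second set (adjusted p up to 0.211 in the other 8), and ended in the paired fit (adjusted p = 0.288, limma).

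Among muscle genes, Myot (myotilin), a Z-disc protein that crosslinks actin, fell. Its signals were 205, 325 and 240.1 in Tg R211A hearts and 461, 509.9 and 611 as lowest, median and highest control, 2.1-fold lower (log2 fold change -1.07, SE 0.145, adjusted p = 0.00325, limma). In the paired fit the adjusted p of Myot was 0.0907 (limma). Tg S343D hearts, at 279 to 414, lay below all controls and overlapped the Tg R211A hearts. The direct difference between the lines missed the threshold (log2 difference -0.46, adjusted p = 0.462, limma). Flnc, filamin C of the Z-disc, had 805, 885 and 945 against 486, 671 and 779.6 (0.45, adjusted p = 0.331, limma). Of 22 Z-disc genes 1 was called and 5 lay above 0, with a median of -0.06. Trdn (triadin), which anchors calsequestrin to the ryanodine receptor, had signals of 2609, 2504 and 2739 against 3126, 3202 and 3455, which did not overlap (-0.32, SE 0.0653, adjusted p = 0.0882, limma). Myh7, the slow myosin heavy chain of fetal and stressed hearts, had 1236, 1323 and 1324 against 325, 753 and 1129.9 (0.96, SE 0.318, adjusted p = 0.424, limma), and the value was 1.5 against the first control set and 0.41 against the second. Sarcomere, calcium handling, intercalated disc and ion channel lists had 0 calls by limma of 19, 20, 16 and 17 genes, with 2, 2, 0 and 2 at an unadjusted p under 0.05.

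Mitochondrial and fuel genes lay close to the controls. Oxidative phosphorylation (47 genes), the tricarboxylic acid cycle (19), fatty acid oxidation (27), glycolysis read from the brightest sets (22) and the mitochondrial ribosome (35) had 0 calls each by limma, with medians from -0.04 to 0.01 and 1, 1, 3, 3 and 3 genes at an unadjusted p under 0.05. Tfb2m, a factor of mitochondrial transcription initiation, fell 1.5-fold (614, 776 and 672 against 948, 999 and 1161; log2 fold change -0.59, SE 0.0804, adjusted p = 0.00329, limma), and its call ended on centred values and in the paired fit (adjusted p = 0.122, limma). Idh1, the cytosolic NADP-dependent isocitrate dehydrogenase, had 397, 451 and 397 against 579, 672 and 1001 (-0.80, SE 0.152, adjusted p = 0.0514, limma) and passed the threshold in 7 alternative fits. Pdk4, which shuts pyruvate out of the mitochondrion, had 3222, 1894 and 1612 against 1557 to 5335 with overlap (-0.71, adjusted p = 0.641, limma).

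Angpt1, the ligand of the endothelial receptor Tek, had signals of 408, 339.7 and 316 against 493, 588 and 742. It fell 1.71-fold (log2 fold change -0.77, SE 0.114, adjusted p = 0.0056, limma), and its second probe set gave -0.51. Tg S343D hearts had 701 to 838, and the lines differed (log2 difference -1.15, adjusted p = 0.00205, limma). Against the first control set alone the log2 fold change of Angpt1 was -0.89, and against the second it was -0.65. Without Tg R211A heart 2 or 3 the call was lost (adjusted p up to 0.0693), as it was in the paired fit (adjusted p = 0.0555, limma). Of 20 angiopoietin and VEGF genes 1 was called. In this bulk tissue fewer cells of a type and less RNA per cell cannot be told apart. Endothelial, fibroblast and macrophage markers had medians of 0.05, 0.09 and -0.02 with 0 of 12, 11 and 14 genes called by limma, and 1, 1 and 0 at an unadjusted p under 0.05. Summed signals of the endothelial list ranged from 6347 to 7363 in Tg R211A hearts and from 6089 to 7157 in controls. Mesothelial markers, all dim, had 8 of 8 genes above 0 and none called (median 0.27; 0 at an unadjusted p under 0.05), with overlapping sums of 543 to 747 and 383 to 696.

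Agtpbp1, which trims glutamate chains from tubulin tails, had 443, 525 and 459.6 against 645, 689.7 and 782. It fell 1.47-fold (log2 fold change -0.56, SE 0.0749, adjusted p = 0.00316, limma), with -0.33 on its other tested set, and the call ended on centred values and in the paired fit (adjusted p = 0.0587, limma). Ipo13, a nuclear import and export receptor, fell 1.36-fold (560.2, 513 and 551 against 686, 723 and 851; adjusted p = 0.0171), and lost its call without Tg R211A heart 2 or 3 (adjusted p up to 0.137, limma), on centred values and in the paired fit (0.114). Klhdc3, a kelch-repeat substrate receptor, was called on a dim probe set at 17.8, 49.1 and 11.3 against 65.9, 78.4 and 119.6 (adjusted p = 0.0247, limma), while its 3 bright sets gave -0.05, -0.03 and 0.03. That call ended without replicate 1 or 3 of the first set, replicate 1 or 2 of the second set, or Tg R211A heart 1 or 3 (adjusted p up to 0.146), and in the paired fit (adjusted p = 0.143, limma). The Tg R211A mean of that set lay below the filter level, which it passed through the other groups. Of called probe sets with no single gene, the largest rise had signals of 414, 401 and 373 against 107, 153 and 220.3 (log2 fold change 1.35, adjusted p = 0.00793, limma). The largest fall had 83.7, 41.8 and 73.7 against 132, 138 and 172 (-1.15, adjusted p = 0.0175, limma), and each lost its call without Tg R211A heart 2 (adjusted p = 0.0638) and in the paired fit (adjusted p = 0.0981 and 0.0839, limma). Another rise had 4478, 4690 and 4829 against 2718, 3215 and 3286 (0.58, adjusted p = 0.00199, limma). It held without any 1 mouse and in the paired fit (adjusted p = 0.0166, limma). So did falls of -0.58 and -0.52 (0.0166 and 0.019 in the paired fit, limma). A fall of -0.44 was called there (0.0291) but not without Tg R211A heart 3 (0.0693). The remaining unnamed sets were not called in the paired fit (adjusted p = 0.0512, 0.0721 and 0.241, limma).

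**Figure D3:**
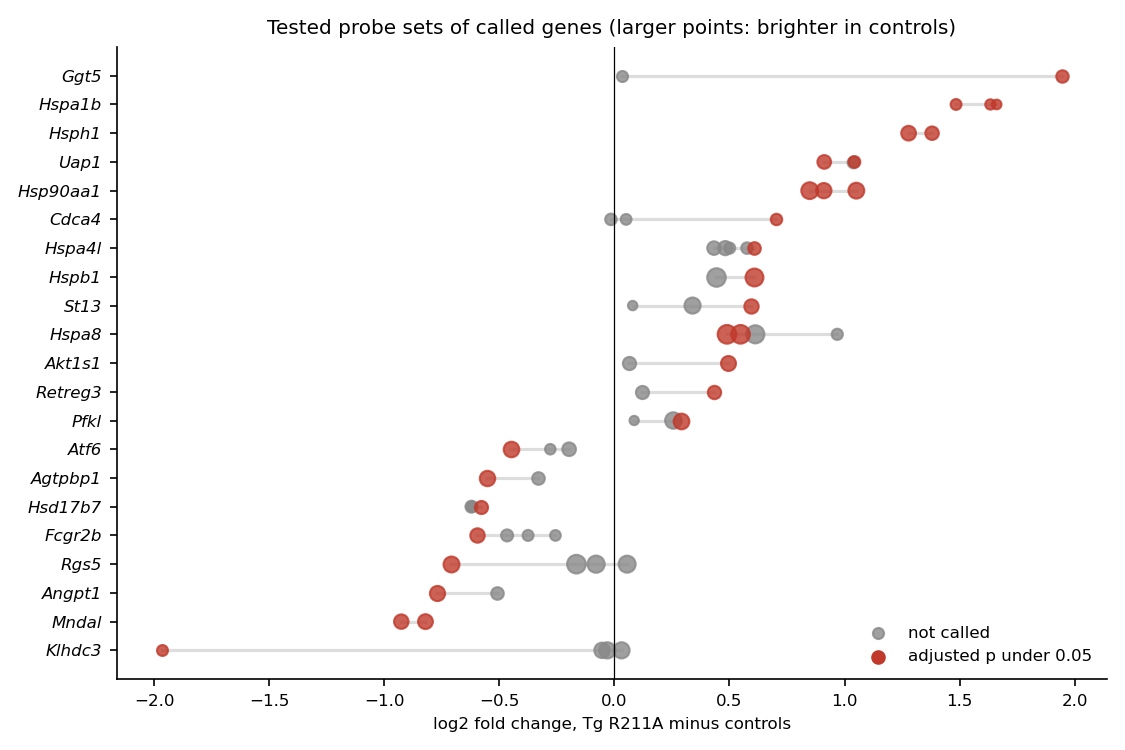
Log2 fold change (Tg R211A minus controls) of each tested probe set of the 21 called genes with more than 1, with larger points for brighter sets and called sets in red. The sets of Hspa1b, Hsph1, Hsp90aa1, Uap1 and Mndal lie close together, whereas Ggt5, Cdca4, Akt1s1, Rgs5 and Klhdc3 have sets near 0.

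Chromosome 1 held 8 of the 29 called genes, and the next chromosome held 3. In RefSeq gene order all 8 lay among 68 neighbouring measured genes, from Rgs5 to Sccpdh, of 641 measured on the chromosome. Uap1 and Sccpdh rose and Rgs5, Hsd17b7, Atf6, Fcgr2b, Mndal and Tfb2m fell. Of the 68 genes, 23 (33.8%) had an unadjusted p under 0.05, 5 above 0 and 18 below, and the median was -0.13, beside 7.51% of all probe sets. The ends of this stretch were set by the called genes, so the share is a description. Over the last 200 measured genes of the chromosome 14% had such a p, and the median was -0.03.

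Mndal, a nuclear protein of the interferon-inducible p200 family, had 235, 334 and 307 against 468, 511 and 564 on its brightest set. It fell 1.77-fold there (log2 fold change -0.82, SE 0.105, adjusted p = 0.00315, limma) and by 0.93 on the log2 scale on its second set, and both calls held without any 1 mouse. The paired fit called the second set and not the brightest (adjusted p = 0.052, limma). Its neighbours Ifi203 and Ifi209 had log2 fold changes of -0.49 and -0.51 without overlap and without a call (adjusted p = 0.278 and 0.52, limma). Ifi202b of the same family lay below the filter, with 37.3, 49.3 and 43.2 in Tg R211A hearts and 0.75, 1.32 and 6.97 as lowest, median and highest control. With no filter it passed (adjusted p = 0.0129, limma), and Tg S343D hearts had 0.836 to 2.6. The broader interferon-stimulated list had 0 of 24 genes called and 0 at an unadjusted p under 0.05 (limma), with a median of -0.05.

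Fcgr2b, the inhibitory Fc receptor of myeloid and B cells, had 241, 329 and 246 against 347, 414 and 456 and fell 1.51-fold (SE 0.112 on the log2 scale, adjusted p = 0.0485, limma). Its call ended without any replicate of the first set, replicate 2 or 3 of the second set, or Tg R211A heart 1 or 3 (adjusted p up to 0.286). Hsd17b7, an enzyme of cholesterol synthesis, fell 1.5-fold (158, 127 and 149.5 against 197, 210.4 and 242; adjusted p = 0.0338), its 3 tested sets gave -0.58 to -0.62, and the call ended without any replicate of the first set, replicate 1 or 3 of the second set, or Tg R211A heart 2 or 3 (adjusted p up to 0.228, limma). Both calls also ended on centred values and in the paired fit (adjusted p = 0.0839 and 0.206, limma). Rgs5, a pericyte regulator of G protein signalling, was called on 1 of 4 probe sets (538, 581 and 576 against 741, 917 and 1051; log2 fold change -0.71, adjusted p = 0.00329, limma), while the brighter sets gave -0.17, -0.08 and 0.06. Sccpdh, a predicted oxidoreductase, rose 1.48-fold (530.0, 497 and 456 against 314, 329.7 and 369; adjusted p = 0.0044, limma), with an adjusted p of 0.0948 in the paired fit.

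**Figure D4:**
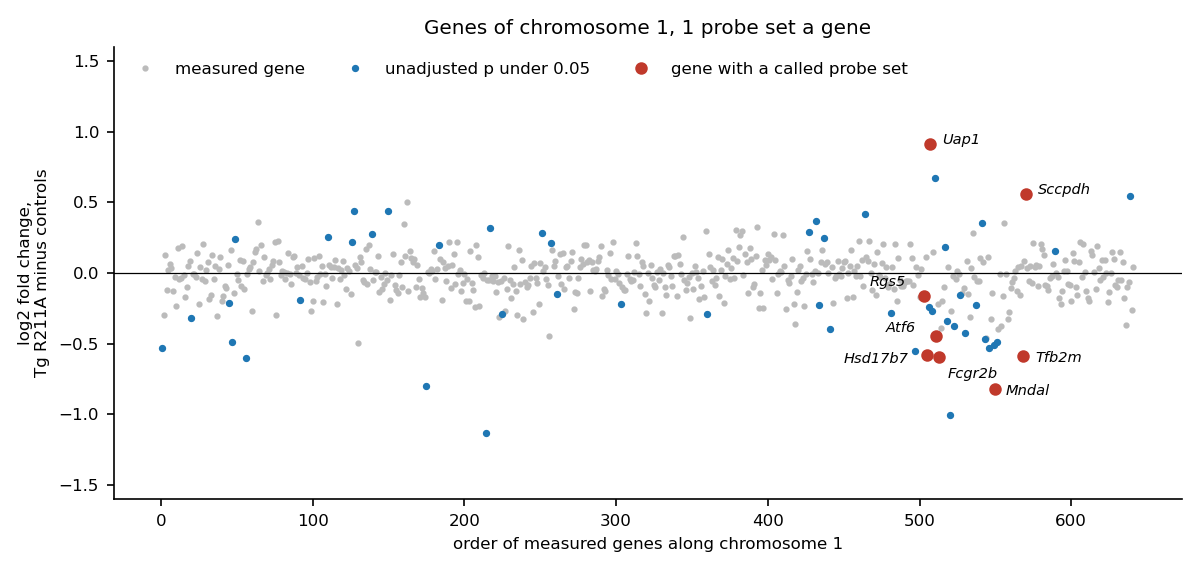
Log2 fold change (Tg R211A minus controls) of 641 measured genes in their order along chromosome 1, with genes at an unadjusted p under 0.05 in blue and genes with a called probe set in red, all drawn from the brightest set of the gene. The 8 called genes lie between order 503 and 570.

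Matrix genes had no call. Of 25 genes of collagen processing and matrix, 20 lay above 0, with a median of 0.10, 4 at an unadjusted p under 0.05 and 0 called by limma. P4ha1, a subunit of prolyl hydroxylase, had 291, 393 and 495 against 205, 253 and 278 (0.63, SE 0.134, adjusted p = 0.103, limma), which did not overlap. Collagen chains had 0 of 16 called and 0 at that p, with a median of 0.05. Among immediate early genes the median was 0.10 over 19 genes, but it was 0.32 against the first control set and -0.17 against the second.

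**Figure D5:**
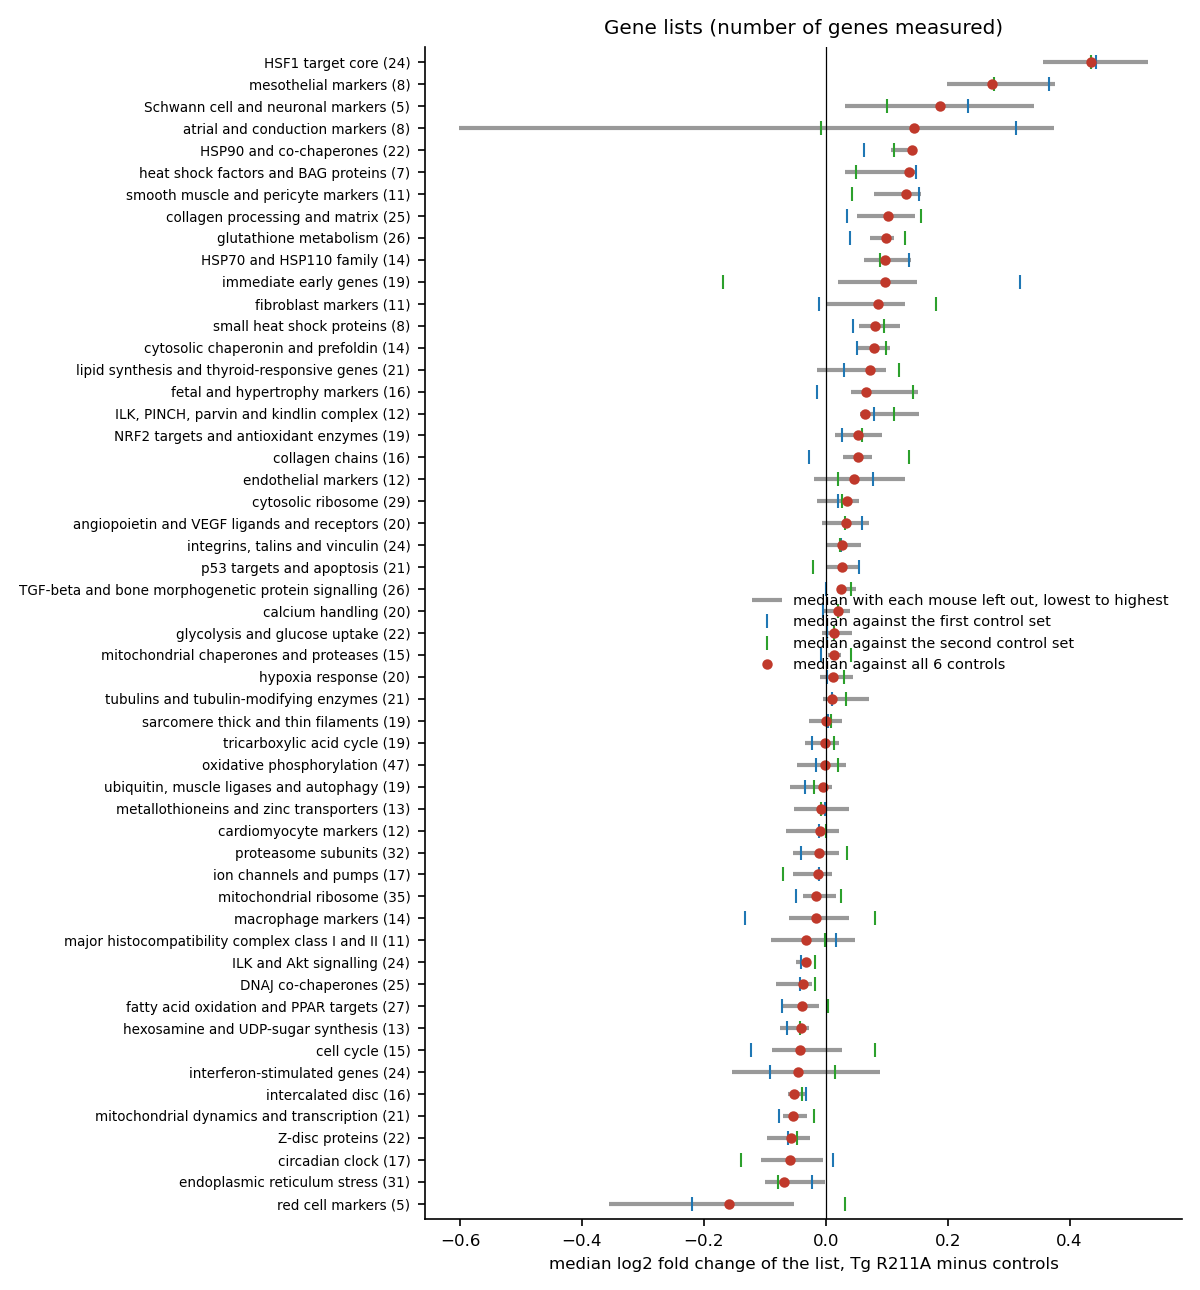
Median log2 fold change (Tg R211A minus controls) of the 53 drawn lists of at least 5 measured genes (number in brackets), with grey bars for the range with any 1 mouse left out and ticks for each control set alone. The HSF1 target core has the highest median of the drawn lists, 0.43, and its grey bar overlaps those of mesothelial and of atrial and conduction markers. Immediate early genes turn sign between the control sets.

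The study's own list of raised genes was chosen on these samples and is not independent evidence. Of its other members, Clu (clusterin, an extracellular chaperone) had a log2 fold change of 0.04 on its brightest set and 0.40 to 0.42 on 3 others, Txnip (a thioredoxin inhibitor) 0.21, Thrsp (a regulator of lipid synthesis) 0.36 and Nabp1 (a single-strand DNA binding protein) 0.26, with overlapping groups on each brightest set (adjusted p = 0.963, 0.936, 0.719 and 0.641, limma).

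Between the transgenic lines, 36 probe sets (0.16%) were called, 21 higher and 15 lower in Tg R211A hearts. Of the 46 probe sets called against the controls, 31 were among them, 21 higher and 10 lower, but the counts between the lines fell to between 5 and 19 higher and between 3 and 9 lower with any 1 mouse left out, lowest higher count without Tg R211A heart 3. Both comparisons use the same Tg R211A arrays and the same estimate of the spread, so this overlap is not a separate check of the calls. Hsph1 differed by 1.30 on the log2 scale on its brightest set (adjusted p = 0.0163), Ggt5 by 1.63 (adjusted p = 0.0031), Akt1s1 by 0.54 (adjusted p = 0.0103) and Mndal by -0.87 (adjusted p = 0.0103, limma). For Tfb2m, Atf6 and Cdca4 the difference between the lines was not called (adjusted p = 0.124, 0.114 and 0.107, limma).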

How the data were processed

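Total RNA of 12 hearts was hybridised to Affymetrix Mouse MOE 430 2.0 arrays, 1 array per mouse. The authors deposited intensity values computed with MAS5, scaled so that the mean signal after trimming 2% at each end is 150 on every array. These intensities were converted to log2 here. Median signals ranged from 41.5 to 49.1 over the arrays, and the 66 array pairs correlated between 0.933 and 0.945. Scaling to a shared mean fixes the overall level, so a change of most genes at once would not be seen. Array signals carry no read depth.

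Probe sets with a mean log2 signal of at least 5.44 were fitted with limma 3.58.1 (R 4.3.3; lmFit and eBayes with trend). The fit took all arrays in the genotype groups Tg R211A, Tg S343D and control, with both control sets as 1 group. The contrast was Tg R211A minus all controls, and p-values were adjusted by Benjamini-Hochberg over all tested probe sets. Figures used Python 3.11.15 and matplotlib 3.10.9. The fitting was tested on simulated data. Of 45037 probe sets, 34945 name 1 gene, 932 several and 9160 none in the platform annotation. A gene was read from its tested probe set with the highest mean for lists.

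Named genes were those with a called probe set, in each list at most the 3 genes of lowest p, and those the study named on these samples. The members and lists were chosen with earlier results of these data known. Myl7, the Xist values, Dnajb9, Dnajb11 and Ifi202b were chosen after their values were seen. Promoters are RefSeq windows of GRCm38.p6. The build behind the array files is not named, so no gene coordinates were taken from them.

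Tg R211A and second-set controls of the same number deviated together (correlations of 0.167, 0.179 and 0.119), unlike those of the first set (-0.07, -0.15 and -0.02). Alternatives were other scalings, offsets, filters, priors, array weights, control sets, the replicate block, an unpaired t-test, another adjustment and leaving out each mouse. The series design calls the mice biological replicates.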

Additional observations from a re-analysis of the deposited data

Results flagged for a closer look

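Of 202 probe sets checked among the 6 controls, 12 (5.94%) had 1 mouse far from the others, and chance gives about 1 in 20. The share in each sentence is that mouse's gap to the nearest other, over the whole range of the 6. Replicate 1 of the second set was lowest for Acta2 (0.953; signal 1171 against 2302 to 2380), for Hspa4l (0.645; 139 against 174 to 197) and for Tubb4b (0.642; 1619 against 2269 to 2740), and highest for the unnamed probe set with the largest fall (0.729; 172 against 132 to 142). Replicate 2 of the first set was lowest for Cacna1g (0.84; 86.9 against 125 to 134) and highest for Ifitm3 (0.652; 3317 against 2688 to 2892) and for a called probe set shared by several p200 genes (0.734; 247 against 188 to 202). Replicate 3 of the second set was highest for Hsp90aa1 (0.681; 1695 against 1471 to 1539), for Nkx2-5 (0.643; 743 against 689 to 708) and for Retreg3 (0.67; 278 against 227 to 243). Replicate 2 of the second set was lowest for Rictor (0.697; 128 against 141 to 147) and highest for Stat2 (0.697; 199 against 135 to 152).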

How the results depend on the processing

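No called probe set changed sign under any alternative (0 reversed). Against 28 probe sets higher and 18 lower, fewer were lower with median centring (9), without the trend (10), with the second control set (10) and with Benjamini-Yekutieli adjustment (8). Over genes, 14 higher and 9 lower, the lower count was 3 with median centring, 5 without the trend, 5 with the replicate block and 4 with Benjamini-Yekutieli adjustment. Median centring moved the median of all probe sets to 0.04.

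An unpaired t-test of Tg R211A hearts against all 6 controls called 3 probe sets higher and 2 lower after Benjamini-Hochberg, and 2 genes higher and 0 lower. At an unadjusted p under 0.05 it gave 757 probe sets higher and 871 lower. The study names no test for single genes on the arrays. Over all 6 controls, the replicate block gave 24 probe sets higher and 12 lower. With the second set alone in a fit of 6 arrays, an alternative chosen after seeing the data, 9 probe sets were higher and 4 lower, and 5 genes higher and 1 lower. With the replicate block there, 14 and 6 probe sets and again 5 and 1 genes were called.

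Of 1563 recomputed list medians, 50 moved by more than the SD over controls. With any 1 mouse left out, 20 to 30 probe sets were higher and 13 to 22 lower, over genes 11 to 17 and 6 to 12, and 27 of the 46 calls held each time. Between the lines, 21 higher and 15 lower, the counts were 5 to 19 and 3 to 9 with 1 mouse left out, and 5 lower with median centring. The causes were not tested. For 3 cell type lists the stricter filter left no gene and gave no median. The median SE was 0.128, and dim probe sets had SEs up to 1.67, so small differences in dim genes were not detectable.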
